A study of Mus musculus with 51 samples.

Results

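The genes described here are 39 genes of the type I interferon response, chosen by name and followed through the femur RNA-seq libraries of mice with and without VitC and of mice lacking Tet1, Tet2 or both. They were sorted by role into 5 sensors of viral nucleic acid, 11 regulators and 23 effectors, and none is missing from either experiment: the VitC femurs list 23358 gene entries and the Tet femurs 25938 genes. The VitC experiment has 3 groups with 3 libraries each, all from mice of 20 weeks of age. WT mice make their own VitC. Gulotm1Mae mice, homozygous for a knockout of the enzyme that completes VitC synthesis, either drank water with 3.3 g/L VitC until the end (VitC+) or lost this supply for the last 5 weeks (VitC+/-). The Tet experiment has 4 groups with 3 libraries each, from VitC-sufficient mice of 11 weeks of age that all carry Prrx1-Cre, which is active in limb mesenchyme and its descendants and not in blood cells. Ctrl mice carry Prrx1-Cre alone, and Tet1 cKO, Tet2 cKO and Tet1/2 cKO mice carry it with floxed alleles of Tet1, of Tet2 or of both. The strain of every mouse is given as C57BL/6, a background that carries defective alleles of Mx1 and Mx2. The marrow of the femurs was flushed and the periosteum removed, and the libraries of a group came from different animals.

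Cells detect foreign nucleic acid with RNA helicases such as MDA5 (Ifih1) and RIG-I (Ddx58), and answer with type I interferon. Interferon binds the receptor of Ifnar1 and Ifnar2, and the kinases JAK1 and TYK2 then activate ISGF3, a complex with STAT2 and IRF9 that binds the interferon-stimulated response element in promoters and induces a large set of antiviral genes. Most tissues, bone and marrow included, keep a low, tonic level of this response without infection.

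The level of a gene in the VitC femurs is given as scaled RPKM, the reads of a gene relative to its length and to the depth of the library, divided by a factor that aligns the libraries, and log2 fold changes are differences of log2(scaled RPKM + 0.5) with their standard error (SE). A gene passed when its adjusted p from limma was below 0.05, after adjustment over all 12586 gene entries tested. The depth behind the RPKM values was about 7610000 reads in WT replicate 1 and 31200000 to 47600000 in the other libraries, and 28600000 to 49800000 in those Tet libraries where it could be computed. The targeted gene was barely measured: Gulo had a deposited RPKM of 0 to 0.522 in the libraries labelled WT, with the 0 in WT replicate 3, of 0.0294 to 0.180 in VitC+ and of 0.0126 to 0.0186 in VitC+/-. Whole-gene counts of Tet1 and Tet2 do not check a deletion of floxed exons in some of the cells of a bone. They were 374 to 435 normalized counts for Tet1 in Ctrl and 532 to 773 in Tet1 cKO, and 2236 to 2512 for Tet2 in Ctrl and 1834 to 2245 in Tet2 cKO. By genes of the sex chromosomes, the VitC libraries read as female and the Tet libraries as male. Xist was at 31.3 to 52.9 and Ddx3y at 0 to 0.147 scaled RPKM in the VitC libraries. In the Tet libraries Xist was at 0.916 to 177 and Ddx3y at 2891 to 5452 normalized counts. Each of the 12 osteoblast and osteocyte markers was above 0 in every group, and so were neutrophil, B-cell precursor, T and NK cell and dendritic cell markers, so the libraries hold RNA of bone and of blood-forming cells.

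To ask what loss of VitC does to the interferon response in bone, VitC+/- femurs were compared with VitC+ femurs. Of the 39 genes, 25 were lower in VitC+/- and 0 were higher, while 7.95% of all genes tested were lower and 5.51% higher. The lower genes comprised 3 of 5 sensors, 8 of 11 regulators and 14 of 23 effectors. The median log2 fold change of the 39 genes was -0.93, against 0.0062 over all genes tested. In 29 of the 39 genes every VitC+/- library lay below every VitC+ library, a pattern seen in 20.1% of all genes tested, and in 0 of them every VitC+/- library lay above, against 20.5%. All 39 genes passed the filter of an RPKM of at least 1 in 3 libraries, but Oasl1, Ifit1, Oas2, Mx1, Mx2 and Ifi44 were below 1 in all 3 VitC+/- libraries and passed only through the other groups, and these 6 were all lower. Of the other 33 genes, 19 were lower. In bulk tissue, fewer cells that express a gene and less RNA of it per cell cannot be told apart. The number of lower genes was 14 without VitC+ replicate 1, 14 without VitC+ replicate 2 and 15 without VitC+ replicate 3. Among all genes tested, 445, 342 and 347 were lower in these fits, in place of 1001. When another library was left out, 17 to 25 of the 39 genes were lower, and 327 to 1285 of all genes. Each time 0 of the 39 genes were higher. Without scaling, which moves the median of all genes by 0.13, 16 genes were lower and 0 higher, against 403 and 473 of all genes.

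**Figure D1:**
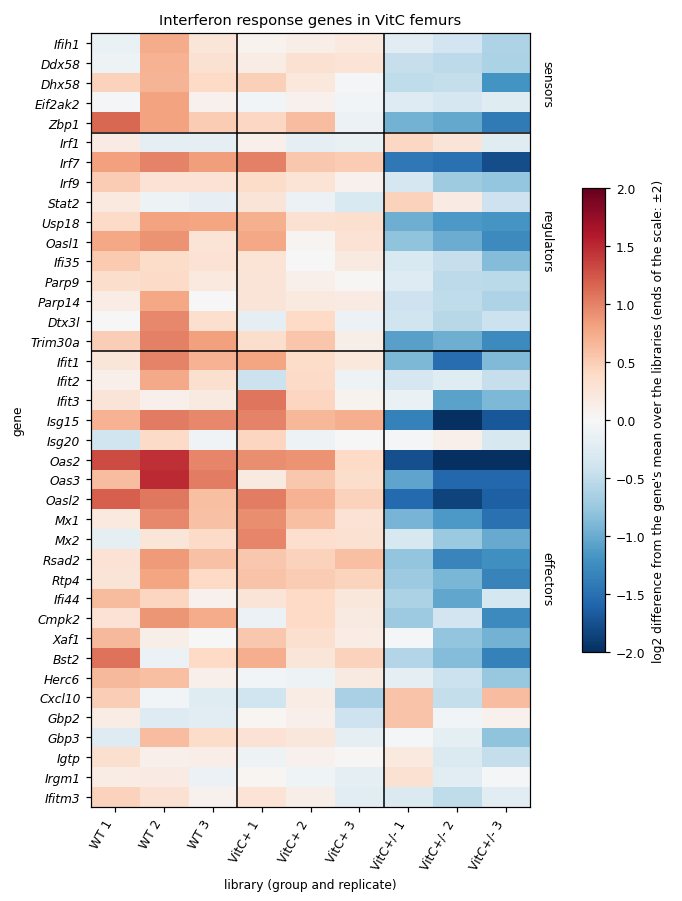
Levels of the 39 genes (rows, by role) in the 9 VitC femur libraries (columns), as the log2 difference of scaled RPKM + 0.5 from the mean of each gene over the libraries. In the VitC+/- columns blue prevails, with 33, 36 and 37 of the 39 genes below their mean in replicates 1, 2 and 3, and a few genes such as Cxcl10, Stat2 and Irf1 depart from this.

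Within VitC+/- the 3 libraries were not equally low. Taken over the 39 genes, the median log2 difference from the own mean of a gene was -0.39, -0.55 and -0.86 in VitC+/- replicates 1, 2 and 3, compared with 0.28, 0.30 and 0.16 for the replicates of VitC+ and 0.32, 0.69 and 0.31 for those of WT. The lowest of all 9 values lay in VitC+/- replicate 3 for 26 genes and in VitC+/- replicate 2 for 10 genes, and the highest in WT replicate 2 for 20 genes and in WT replicate 1 for 10 genes. The median over the 39 genes of the log2 fold change against VitC+ was -0.74 when VitC+/- replicate 3 was left out.

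The response element that ISGF3 binds has a core of GAAA, any 2 bases and GAAA again. RefSeq promoters of the GRCm38.p6 assembly, from 250 bases before to 50 bases after the start of a gene, were at hand for 30 of the 39 genes, and Dhx58, Zbp1, Usp18, Parp9, Parp14, Oas2, Mx1, Mx2 and Rtp4 had no entry. The core, on either strand and counting overlapping matches, stood in 17 of the 30 (56.7%) and in 3.99% of all 27025 gene symbols with a promoter. In the bases before the start alone it stood in 13 of 30 (43.3%) against 3.46%. The sequences below show it, in capitals, as read 5′ to 3′ along the strand of the gene, in 4 genes that were lower in VitC+/- than in VitC+ (Isg15, Ifit1, Rsad2 and Oas3) and in 3 that did not pass (Stat2, Gbp2 and Cxcl10). A core that begins with TTTC in capitals lies on the opposite strand.
Isg15: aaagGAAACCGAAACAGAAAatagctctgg
Ifit1: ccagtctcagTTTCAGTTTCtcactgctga
Rsad2: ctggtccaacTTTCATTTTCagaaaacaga
Oas3: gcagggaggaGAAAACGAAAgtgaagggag
Stat2: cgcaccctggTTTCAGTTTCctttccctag
Gbp2: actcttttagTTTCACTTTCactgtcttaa
Cxcl10: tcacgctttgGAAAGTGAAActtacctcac
In this order the stretches lie at chr4:156200865-156200894 (minus strand), chr19:34640794-34640823 (plus), chr12:26456553-26456582 (minus), chr5:120777715-120777744 (minus), chr10:128270266-128270295 (plus), chr3:142620594-142620623 (plus) and chr5:92349083-92349112 (minus). The stretch of Isg15 runs from 76 to 47 bases before the start and holds 2 overlapping cores in full. A further core of Isg15 begins 78 bases before the start and is cut by the edge of the stretch, so part of it stands in lower case. Ifit1 has a further core that begins 104 bases before the start and is not shown in full. The matches do not split the genes by their change: against VitC+, 8 of the 17 genes with a core were lower in VitC+/-, as were 8 of the 13 without one and 9 of the 9 with no promoter entry. A match of these letters is not a shown binding site.

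Among the 5 sensors, Zbp1, Dhx58 and Ddx58 were lower in VitC+/- than in VitC+, and Ifih1 and Eif2ak2 did not pass. Zbp1, which senses Z-form nucleic acid and can start cell death (chromosome 2, 173206612 to 173218922), had scaled RPKM values of 9.11, 7.05 and 5.66 in WT, 5.23, 6.13 and 3.50 in VitC+ and 1.74, 1.61 and 1.12 in VitC+/-. All VitC+/- values of Zbp1 lay below all others, with a log2 fold change of -1.43 (SE 0.25, limma adjusted p = 0.00876) against VitC+ and -1.95 (SE 0.25, limma adjusted p = 0.00104) against WT. Ddx58, encoding RIG-I (chromosome 4, 40203777 to 40239825), had 4.18, 7.65 and 5.73 in WT, 5.08, 5.71 and 5.58 in VitC+ and 3.14, 3.01 and 2.76 in VitC+/-. The groups did not overlap, and the log2 fold change of Ddx58 was -0.78 (SE 0.20, limma adjusted p = 0.0350) against VitC+ and -0.84 (SE 0.20, limma adjusted p = 0.0134) against WT. The call against VitC+ did not hold without scaling (limma adjusted p = 0.169), without the filter (0.0637) and without any 1 of 7 libraries (0.0596 without WT replicate 3, 0.0789, 0.113 and 0.106 without VitC+ replicates 1, 2 and 3, and 0.0922, 0.0683 and 0.0764 without VitC+/- replicates 1, 2 and 3), and the call against WT did not hold without scaling (0.0598). Ifih1, encoding MDA5 (chromosome 2, 62595793 to 62646255), had 2.40, 4.82 and 3.26 in WT, 2.85, 3.01 and 3.14 in VitC+ and 2.22, 1.94 and 1.59 in VitC+/-, again with every VitC+/- value below the others. Its log2 fold change was -0.54 (SE 0.23, limma adjusted p = 0.140) against VitC+, which did not pass, and -0.69 (SE 0.23, limma adjusted p = 0.0462) against WT. The latter call was lost without scaling (limma adjusted p = 0.130), without the filter (0.0821), in a fit of the 6 libraries alone (0.102) and when any library but WT replicate 1 was left out (0.108 and 0.104 without WT replicates 2 and 3, 0.0654, 0.0672 and 0.0727 without VitC+ replicates 1, 2 and 3, and 0.0739, 0.0856 and 0.127 without VitC+/- replicates 1, 2 and 3). Dhx58, the helicase LGP2, was lower in both comparisons, with log2 fold changes of -0.94 against VitC+ and -1.24 against WT. Eif2ak2, the RNA-activated kinase PKR, had -0.27 and -0.56 and did not pass in either.

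The regulators differed widely among themselves, from Irf7, which was much lower in VitC+/-, to Stat2, which did not pass. Irf7, the factor that amplifies interferon production (chromosome 7, 141263183 to 141266424), had scaled RPKM values of 16.8, 19.0 and 17.0 in WT, 19.2, 13.9 and 13.5 in VitC+ and 3.15, 2.99 and 2.39 in VitC+/-. The mean of Irf7 fell from 15.5 ± 3.19 (SD, n = 3) to 2.84 ± 0.40 (SD, n = 3) between VitC+ and VitC+/-, with a log2 fold change of -2.25 (SE 0.17, limma adjusted p = 0.000395), and against WT the log2 fold change was -2.44 (SE 0.17, limma adjusted p = 0.000139). Usp18, which removes ISG15 from proteins and dampens signalling at the interferon receptor (chromosome 6, 121245906 to 121270917), had 4.32, 5.96 and 5.92 in WT, 5.56, 4.09 and 4.15 in VitC+ and 1.39, 1.18 and 1.14 in VitC+/-. The groups of Usp18 did not overlap, and its log2 fold change was -1.54 (SE 0.19, limma adjusted p = 0.00233) against VitC+ and -1.75 (SE 0.19, limma adjusted p = 0.000523) against WT. Trim30a, a TRIM protein that restrains inflammatory signalling (chromosome 7, 104409026 to 104465193), had 14.1, 20.2 and 17.8 in WT, 12.7, 14.7 and 10.8 in VitC+ and 4.39, 4.75 and 3.77 in VitC+/-. The log2 fold change of Trim30a was -1.46 (SE 0.18, limma adjusted p = 0.00233) against VitC+ and -1.89 (SE 0.18, limma adjusted p = 0.000346) against WT. Stat2, the ISGF3 subunit that carries its activation domain (chromosome 10, 128270576 to 128292849), behaved differently, with 11.7, 9.49 and 9.08 in WT, 12.3, 9.39 and 8.13 in VitC+ and 14.2, 11.4 and 7.52 in VitC+/-. Its groups overlapped fully, and its log2 fold change was 0.12 (95% interval -0.42 to 0.66, limma adjusted p = 0.764) against VitC+ and 0.089 (95% interval -0.45 to 0.63, limma adjusted p = 0.803) against WT. Its direction was not stable, since the log2 fold change against VitC+ was -0.0079 without VitC+ replicate 3 and -0.073 without VitC+/- replicate 1, and against WT -0.10 without VitC+/- replicate 1.

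Irf9, the DNA-binding subunit of ISGF3, was lower in both comparisons, with log2 fold changes of -0.85 and -0.97 against VitC+ and WT. Irf1, an early factor that strongly answers interferon gamma, did not pass with 0.23 and 0.22. The other regulators were Oasl1, an inhibitor of Irf7 translation, Ifi35, a partner of Nmi, and Parp9, Dtx3l and Parp14, of which Parp9 and Dtx3l form a complex of an ADP-ribosyltransferase and a ubiquitin ligase. Oasl1, Ifi35, Parp9 and Parp14 were lower in both comparisons, with log2 fold changes of -1.39 to -0.57 against VitC+ and of -1.67 to -0.75 against WT, while Dtx3l had -0.48 against VitC+, which did not pass, and was lower against WT with -0.89. Parp9 (chromosome 16, 35938470 to 35972621) and Dtx3l (chromosome 16, 35926515 to 35939027) overlap at their ends, and reads from this stretch cannot be given to either of them without strand.

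The effectors held the largest changes. Oas2, a synthase of the 2-5A messenger that activates RNase L (chromosome 5, 120730333 to 120749848), had scaled RPKM values of 9.06, 10.2 and 7.12 in WT, 6.83, 6.67 and 4.59 in VitC+ and 0.646, 0.408 and 0.383 in VitC+/-. Its log2 fold change was -2.73 (SE 0.21, limma adjusted p = 0.000395) against VitC+ and -3.24 (SE 0.21, limma adjusted p = 0.000107) against WT, the largest among the 39 genes in both comparisons. Oas3, its neighbour with the same kind of activity (chromosome 5, 120753098 to 120777659), had 4.93, 9.45 and 6.69 in WT, 3.52, 4.67 and 4.04 in VitC+ and 1.2, 0.701 and 0.695 in VitC+/-. For Oas3 the log2 fold change was -1.76 (SE 0.25, limma adjusted p = 0.00436) against VitC+ and -2.44 (SE 0.25, limma adjusted p = 0.000457) against WT. Oasl2, an OAS-like protein (chromosome 5, 114896934 to 114912245), had 12.8, 11.5 and 8.27 in WT, 11.3, 8.89 and 7.49 in VitC+ and 1.48, 1.11 and 1.36 in VitC+/-. The groups of the 3 genes did not overlap, and Oasl2 had a log2 fold change of -2.41 (SE 0.21, limma adjusted p = 0.000530) against VitC+ and -2.63 (SE 0.21, limma adjusted p = 0.000163) against WT.

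Isg15, the ubiquitin-like protein that is attached to other proteins after interferon (chromosome 4, 156199424 to 156200818), had 26.4, 33.7 and 31.8 in WT, 32.6, 25.9 and 27.1 in VitC+ and 6.02, 3.61 and 4.66 in VitC+/-. The fall from 28.5 ± 3.56 (SD, n = 3) to 4.76 ± 1.21 (SD, n = 3) between VitC+ and VitC+/- gave a log2 fold change of -2.48 (SE 0.19, limma adjusted p = 0.000395), and against WT it was -2.58 (SE 0.19, limma adjusted p = 0.000147). Ifit1, which binds viral RNA by its cap (chromosome 19, 34640889 to 34650009), had 2.28, 4.19 and 3.32 in WT, 3.57, 2.53 and 2.22 in VitC+ and 0.757, 0.322 and 0.781 in VitC+/-. The log2 fold change of Ifit1, which passed the filter only through the other groups, was -1.55 (SE 0.27, limma adjusted p = 0.0100) against VitC+ and -1.75 (SE 0.27, limma adjusted p = 0.00241) against WT. Rsad2, encoding viperin, which makes a chain-terminating nucleotide (chromosome 12, 26442743 to 26456452), had 10.0, 15.2 and 12.5 in WT, 12.1, 11.4 and 12.7 in VitC+ and 4.51, 2.96 and 3.21 in VitC+/-. For Rsad2 the log2 fold change was -1.64 (SE 0.19, limma adjusted p = 0.00195) against VitC+ and -1.69 (SE 0.19, limma adjusted p = 0.000658) against WT.

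Mx1, a dynamin-like antiviral GTPase that is defective in the strain named on the labels (chromosome 16, 97447035 to 97462906), had 2.07, 3.90 and 2.87 in WT, 3.80, 2.91 and 2.27 in VitC+ and 0.690, 0.520 and 0.303 in VitC+/-. The log2 fold change of Mx1 was -1.79 (SE 0.27, limma adjusted p = 0.00522) against VitC+ and -1.76 (SE 0.27, limma adjusted p = 0.00212) against WT. Mx1 passed the filter only through the other groups, as did Mx2 and Ifi44 below. Rtp4, an interferon-induced protein of the receptor transporter family (chromosome 16, 23609919 to 23614222), had 6.17, 9.16 and 6.86 in WT, 7.73, 7.46 and 7.07 in VitC+ and 2.86, 2.45 and 1.72 in VitC+/-. For Rtp4 the log2 fold change was -1.50 (SE 0.20, limma adjusted p = 0.00338) against VitC+ and -1.48 (SE 0.20, limma adjusted p = 0.00139) against WT. In Mx1, Rtp4, Isg15, Ifit1 and Rsad2, as in the Oas genes above, every VitC+/- library was below every other library. Bst2 (tetherin), Ifi44, Cmpk2 and Xaf1 were also lower in both comparisons, with log2 fold changes of -1.41 to -0.93 against VitC+ and of -1.43 to -0.85 against WT, and Xaf1 was just inside the threshold against VitC+ with a limma adjusted p of 0.0496. Mx2 and Ifit3 were lower against VitC+ with -1.22 each, and against WT they had -0.83 and -0.88 with limma adjusted p of 0.0544 and 0.0512. The Oasl, Mx, Ifit and Gbp genes have close paralogues whose reads may be shared, so the split between such copies is uncertain.

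**Figure D2:**
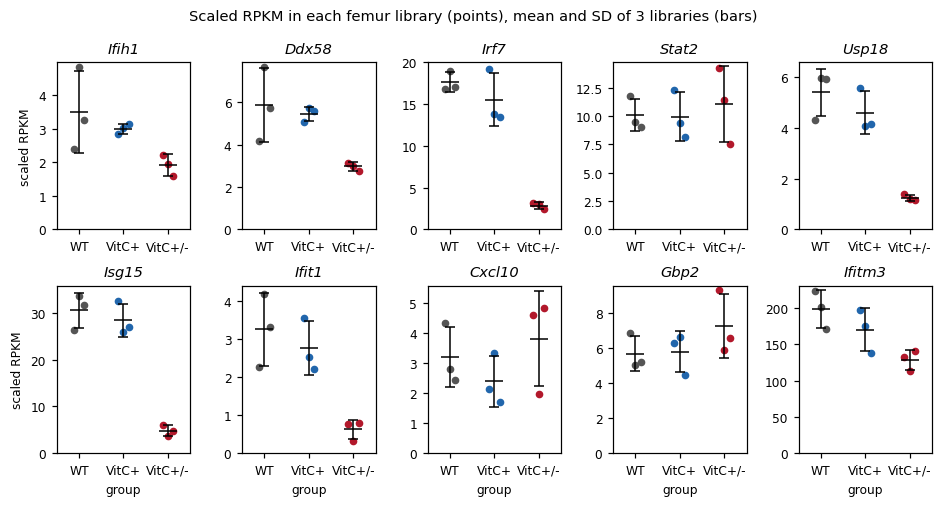
Scaled RPKM of 10 of the 39 genes in each of the 9 VitC femur libraries (points), with the mean and SD of the 3 libraries of a group (bars). Irf7, Isg15, Usp18 and Ifit1 are low in all 3 VitC+/- libraries, Ddx58 and Ifih1 lie below the other groups by less, and the VitC+/- libraries of Ifitm3, Stat2, Cxcl10 and Gbp2 overlap those of VitC+.

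A further set of effectors did not pass in the comparison with VitC+. Cxcl10, a chemokine that attracts T cells and answers interferon gamma strongly (chromosome 5, 92346639 to 92348889), had scaled RPKM values of 4.35, 2.82 and 2.44 in WT, 2.13, 3.33 and 1.71 in VitC+ and 4.61, 1.99 and 4.84 in VitC+/-. Its log2 fold change was 0.54 (95% interval -0.23 to 1.30, limma adjusted p = 0.317) against VitC+ and 0.17 (95% interval -0.59 to 0.94, limma adjusted p = 0.727) against WT, and the latter was -0.017 without VitC+/- replicate 3. Gbp2, a guanylate-binding GTPase that attacks vacuoles of pathogens (chromosome 3, 142620663 to 142638008), had 6.85, 5.02 and 5.18 in WT, 6.31, 6.64 and 4.45 in VitC+ and 9.33, 5.87 and 6.55 in VitC+/-. Its log2 fold change was 0.29 (95% interval -0.20 to 0.78, limma adjusted p = 0.40) against VitC+ and 0.31 (95% interval -0.18 to 0.81, limma adjusted p = 0.304) against WT. Ifitm3, which blocks the entry of viruses from endosomes (chromosome 7, 141009590 to 141010744), was the most abundant of the 39 genes per length, with 224, 202 and 172 in WT, 197, 175 and 139 in VitC+ and 133, 114 and 140 in VitC+/-. Its VitC+/- and VitC+ groups overlapped, with a log2 fold change of -0.39 (SE 0.17, limma adjusted p = 0.159), whereas against WT it was lower with -0.62 (SE 0.17, limma adjusted p = 0.0241). The call against WT was lost without WT replicate 1 (limma adjusted p = 0.0592) and without VitC+/- replicate 1 or 2 (0.0644 and 0.0691).

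The other effectors that did not pass against VitC+ were Herc6, the enzyme that attaches ISG15 in mice, Gbp3, Ifit2, the exonuclease gene Isg20 and the GTPases Igtp and Irgm1, with log2 fold changes between -0.46 and 0.090. Among them Herc6 and Ifit2 were lower against WT, with -0.90 and -0.74. Isg20, Irgm1, Igtp, Gbp3 and Gbp2 had levels in VitC+/- that overlapped those of both other groups, as did Stat2, Irf1 and Cxcl10.

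Compared to WT femurs, 28 of the 39 genes were lower in VitC+/- and 0 higher, against 15.7% lower and 15.3% higher among all genes tested. These were 4 of 5 sensors, 9 of 11 regulators and 15 of 23 effectors, and their groups did not overlap in 31 of the 39 genes, with VitC+/- below WT each time, a pattern of 21.3% of all genes tested (21.5% for the opposite one). The median log2 fold change was -0.90, against 0.013 over all genes. Of the 6 genes that passed the filter only through other groups 5 were lower, and of the other 33 genes 23 were. Leaving out 1 library gave 23 to 29 lower genes and 0 higher, with 1167 to 1994 of all genes lower. This comparison uses the same VitC+/- libraries as the comparison with VitC+, so it is not a separate measurement of VitC+/-.

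**Figure D3:**
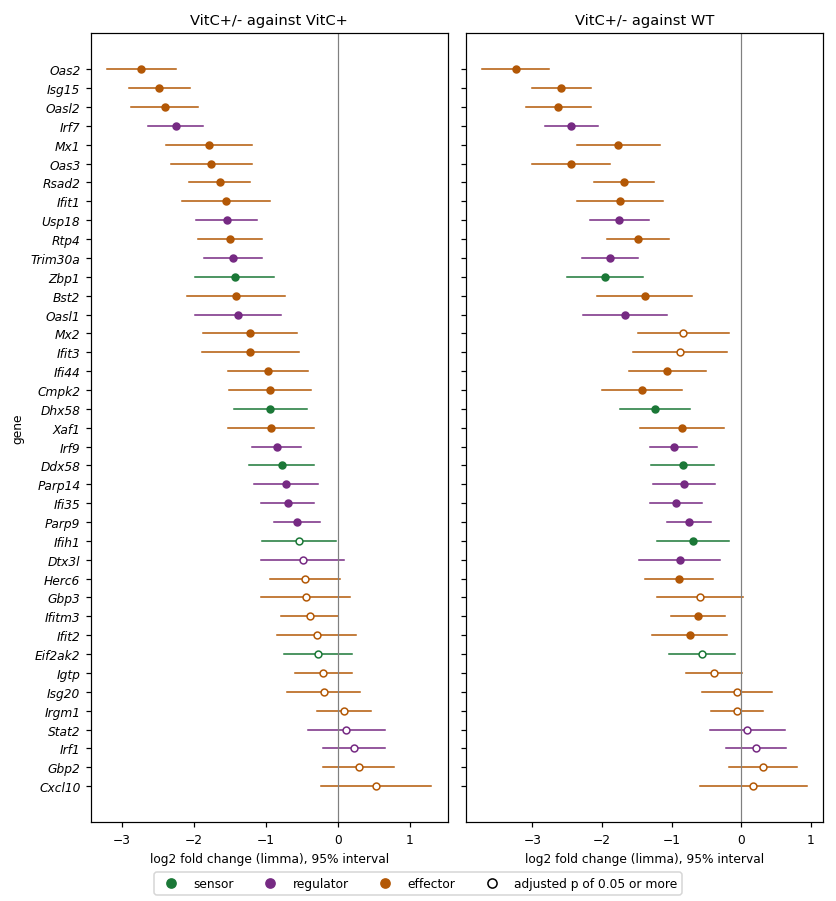
Log2 fold change of the 39 genes in VitC+/- against VitC+ (left) and against WT (right), with the 95% interval of limma (lines) and colours for sensors, regulators and effectors. Filled points passed the adjusted threshold of 0.05, which 25 genes did on the left and 28 on the right, all of them below 0.

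To separate the Gulo knockout from the loss of VitC, WT femurs were compared with VitC+ femurs. With limma 0 of 12586 genes (0%) passed, and 2717 (21.6%) had an unadjusted p below 0.05. None of the 39 genes passed, and 3 had an unadjusted p below 0.05, namely Oas3, Oas2 and Trim30a, with log2 fold changes of 0.68 (limma adjusted p = 0.167), 0.51 (0.204) and 0.43 (0.203) in WT against VitC+. The values of 31 genes were above 0 and of 8 below, and the median was 0.18 against 0.024 over all genes. In 4 genes, Oas3, Oas2, Ifi35 and Igtp, every WT library was above every VitC+ library, a pattern in 13.4% of all genes tested, and in 0 genes every WT library was below, against 15%. A p that misses the threshold does not show that the levels are equal. Without WT replicate 1, the library of lowest depth, 658 genes passed and again 0 of the 39, and without VitC+/- replicate 2 or 3, which share the estimate of the spread, 67 and 3 genes passed and 0 of the 39.

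The remaining genes of the pathway were taken from a list of 119 genes that are not among the 39, of which 106 were in the RPKM values and 92 were tested. Against VitC+, 27 of the 92 were lower in VitC+/- and 3 higher, where 7.95% and 5.51% of all genes tested were, and against WT 44 were lower and 4 higher, where 15.7% and 15.3% were. With so few genes in some roles, a count of 1 or 2 says little when set against these shares. The interferon genes themselves were hardly detected. Ifna1, Ifna2, Ifna4, Ifna5, Ifna11, Ifna13, Ifnb1 and Ifne were listed at 0 in all 9 libraries, Ifnk reached a deposited RPKM of 0.123, and Ifng reached 1.09 and was not tested. Of the 8 receptor chains and kinases tested, 0 passed in limma against VitC+ and 1, Il10rb, was lower against WT. Ifnar1, the receptor chain that recruits TYK2, had scaled RPKM values of 11.6, 9.78 and 8.89 in WT, 10.4, 9.94 and 10.4 in VitC+ and 10.8, 10.7 and 13.2 in VitC+/-. The VitC+/- libraries of Ifnar1 lay above the VitC+ libraries and overlapped those of WT.

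Of 14 signal factors, 1 was lower against VitC+ and 1 higher. The lower gene was Irf8, a factor of myeloid and dendritic cells, with 60.9, 56.8 and 54.9 in WT, 39.5, 41.2 and 30.1 in VitC+ and 17.0, 20.0 and 15.9 in VitC+/- and a log2 fold change of -1.04 (limma adjusted p = 0.00503). The higher gene was Tbk1, a kinase that activates IRF3 and IRF7, with a log2 fold change of 0.72 (limma adjusted p = 0.0142).

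Of 6 further sensors, Tlr3 and Ifi204 were lower against VitC+, with log2 fold changes of -0.89 and -0.76. Of 9 negative regulators, Samhd1, which degrades nucleotides, was lower with -0.66, and Socs3, an inhibitor of cytokine signalling, was higher with 1.35. Among 55 other response genes 23 were lower and 1 higher. The lower ones included Oas1a with a log2 fold change of -2.56, Ifi27l2a with -2.57, Slfn4 with -2.20, Slfn1 with -2.15, Ms4a4c with -2.02 and Ifi203 with -1.97, and the higher one was Iigp1, a GTPase of the same family as Igtp, with 1.24. Iigp1 had scaled RPKM values of 3.81, 2.54 and 2.53 in WT, 4.76, 3.78 and 3.72 in VitC+ and 12.5, 11.7 and 7.39 in VitC+/-, so each VitC+/- value was above all others.

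Markers of several blood cell types were also lower in VitC+/-, read against the shares of all genes tested given above for each comparison. Of 10 B-cell precursor markers tested, 9 were lower in VitC+/- than in VitC+, and the summed scaled RPKM of the list was 14.4 to 27.2 in VitC+/-, 84.2 to 166 in VitC+ and 52.8 to 180 in WT. Of 14 neutrophil markers, 4 were lower and 1 higher against VitC+ and 13 were lower and 1 higher against WT, with sums of 8554 to 25939, 31489 to 49207 and 55312 to 76423 in VitC+/-, VitC+ and WT. The higher marker was Mmp9 in both comparisons, which is also in the osteoclast list and is counted again there. Lower than in VitC+ were further 4 of 9 T and NK cell markers, 6 of 9 of conventional dendritic cells, 1 of 6 of plasmacytoid dendritic cells, 3 of 7 of megakaryocytes, 4 of 11 of osteoblasts and osteocytes and 4 of 12 of monocytes and macrophages, the last with 1 higher. Sums of T and NK cell markers were 19.8 to 49.0, 80.2 to 128 and 152 to 251, and sums of conventional dendritic cell markers 207 to 240, 529 to 768 and 353 to 803 in the same order. Most of the T and NK sum was Nkg7. Cd3d, Cd4 and Cd8a overlapped between VitC+/- and VitC+, and the others of that list lay below. Most of the conventional dendritic sum was H2-Aa, H2-Ab1, H2-Eb1 and Cd74. Xcr1, Flt3 and Zbtb46 of that list overlapped VitC+, and the others lay below. Flt3 had 4.77, 7.74 and 3.66 in VitC+/- against 4.00, 3.76 and 3.01 in VitC+, and Zbtb46 had 2.06, 1.78 and 2.32 against 1.40, 0.808 and 1.82. Markers of plasmacytoid dendritic cells, the main producers of type I interferon, had sums of 10.4 to 47.5, 22.4 to 40.6 and 19.9 to 40.0, so these groups overlapped. Without Cox6a2, which is also expressed in skeletal muscle and was left out after its values were seen, the sums were 10.0 to 14.2, 19.3 to 24.9 and 15.9 to 26.1, with VitC+/- below both other groups. Siglech was the only 1 of the 6 tested genes of this list that passed against VitC+, with a log2 fold change of -1.85 (limma adjusted p = 0.00434). The VitC+/- values of Tcf4 and Lag3 overlapped those of VitC+. Sums of osteoblast and osteocyte markers were 704 to 4470 in VitC+/-, 5440 to 10511 in VitC+ and 1022 to 3931 in WT. Sums of monocyte and macrophage markers were 502 to 658 in VitC+/-, 571 to 651 in VitC+ and 698 to 835 in WT. Every gene of these 8 lists that the libraries list was above 0 in at least 1 library of each group. Some markers of erythroid cells, osteoclasts and adipocytes were higher in VitC+/-. Of 7 erythroid markers 0 were lower and 2 higher with limma in each comparison, and their sums were 285 to 403 in VitC+/-, 175 to 278 in VitC+ and 186 to 222 in WT. There were 8 of 9 osteoclast and 7 of 9 adipocyte markers higher in VitC+/- than in WT and 4 of 9 and 0 of 9 (limma) higher than in VitC+. Sums of megakaryocyte markers were 135 to 186, 243 to 681 and 215 to 623 in VitC+/-, VitC+ and WT. The part of these cells in the levels of the interferon response genes was not tested.

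**Figure D4:**
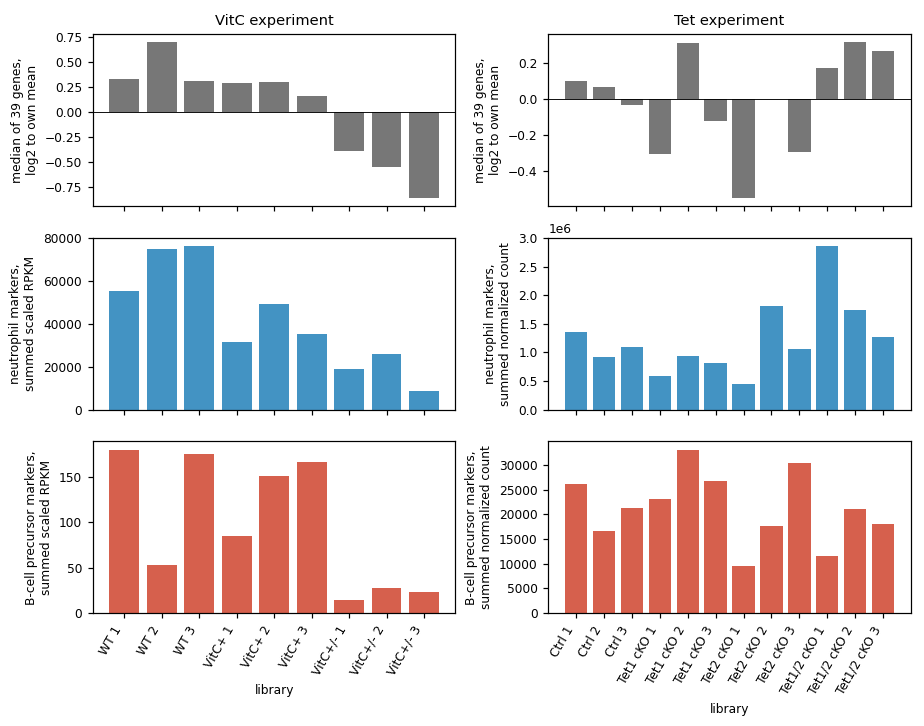
Median log2 difference of the 39 genes from their own mean (top), and summed level of 14 neutrophil markers (middle) and 11 B-cell precursor markers (bottom), per library of the VitC experiment (left, scaled RPKM) and of the Tet experiment (right, normalized counts). The 3 VitC+/- libraries are lowest in all 3 panels on the left, and on the right Tet2 cKO replicate 1 is lowest in all 3.

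In the Tet femurs, where VitC was present, values are normalized counts, that is read counts divided by the size factor of the library, and log2 fold changes are differences of log2(normalized count + 1). The 3 comparisons share the Ctrl libraries. With limma, 0 of the 39 genes passed in Tet1 cKO, in Tet2 cKO or in Tet1/2 cKO against Ctrl, while 1 of 16780 genes (0.00596%) was lower and 1 (0.00596%) higher in each of the single knockouts and 0 (0%) in Tet1/2 cKO. On reads recovered from the same values, edgeR and DESeq2 also called 0 of the 39. An unadjusted p below 0.05 was found for 1 gene in Tet1 cKO (Mx2, log2 fold change 0.93), for 3 in Tet2 cKO (Igtp with -0.61, Oasl2 with -0.59 and Gbp3 with -0.51) and for 2 in Tet1/2 cKO (Eif2ak2 with 0.39 and Herc6 with 0.35), against 2.28%, 2.19% and 5.05% of all genes, each with a limma adjusted p of 0.723 or more. The median log2 fold change of the 39 genes was -0.10 in Tet1 cKO, -0.34 in Tet2 cKO and 0.19 in Tet1/2 cKO. It moved to -0.31 without Tet1 cKO replicate 2 and to 0.047 without Tet1 cKO replicate 1, and for Tet2 cKO to -0.17 without replicate 1.

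**Figure D5:**
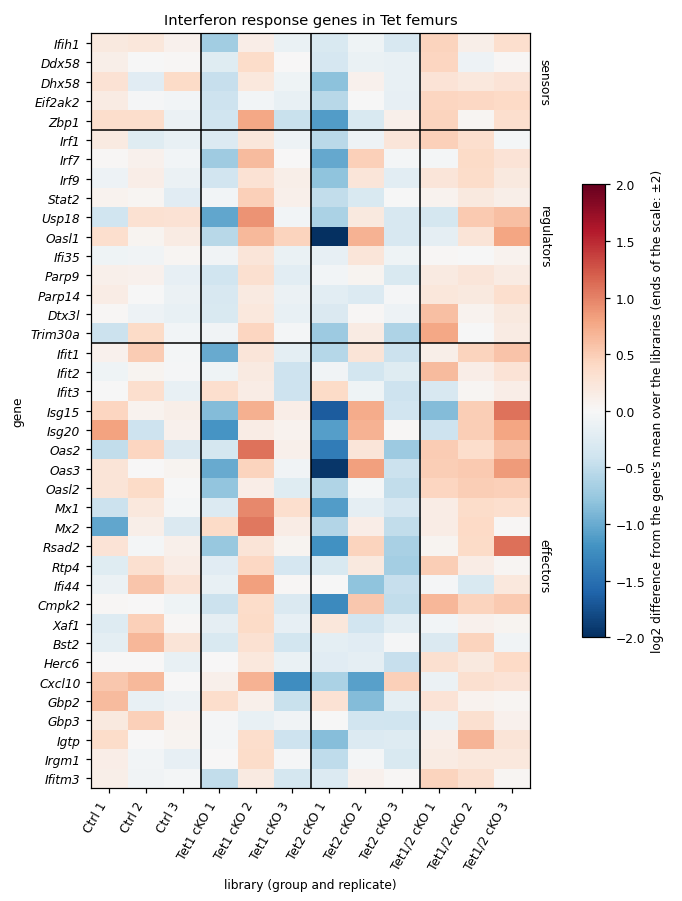
Levels of the 39 genes (rows, by role) in the 12 Tet femur libraries (columns), as the log2 difference of normalized count + 1 from the mean of each gene over the libraries. Within Tet1 cKO and Tet2 cKO the libraries differ from each other, and 36 genes of Tet2 cKO replicate 1 are below their mean while 37 genes of Tet1 cKO replicate 2 are above it.

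Single libraries stood apart in the Tet femurs. The lowest of the 12 values lay in Tet2 cKO replicate 1 for 19 genes and in Tet1 cKO replicate 1 for 9, and the highest in Tet1 cKO replicate 2 for 11 and in Tet1/2 cKO replicate 1 for 10. The libraries Tet2 cKO replicate 1 and Tet1 cKO replicate 1 also had the lowest summed neutrophil markers, with 443595 and 580219 normalized counts against 911817 to 1362590 in Ctrl, and Tet1/2 cKO replicate 1 had the highest with 2859510. In the same order, these 2 libraries had the highest summed skeletal muscle markers, with 1412610 and 1089320 against 113115 to 498443 in Ctrl. Their summed adipocyte markers were the highest too, with 64214 and 30007 against 18864 to 28902 in Ctrl. The part of these cell types in the levels of the 39 genes was not tested. In Tet1/2 cKO, 11 genes had all 3 libraries above all Ctrl libraries (Parp9, Irgm1, Parp14, Oasl2, Irf9, Herc6, Dtx3l, Ifit2, Eif2ak2, Oas3 and Cmpk2), which holds for 7.37% of all genes tested, and 0 had them all below, against 10%. In Tet2 cKO, 6 genes had all libraries below Ctrl (Igtp, Oasl2, Gbp3, Ifih1, Ddx58 and Herc6), against 3.43% of all genes, and 0 had them above, against 2.54%. In Tet1 cKO this was so for Gbp3, and Mx2 was above Ctrl in all 3 libraries, against 3.54% and 4.28% of all genes.

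For the double knockout, the sensor Ifih1 had 1399, 1425 and 1298 normalized counts in Ctrl and 1661, 1330 and 1536 in Tet1/2 cKO, a log2 fold change of 0.13 (95% interval -0.32 to 0.58). Ddx58 had 2139, 1954 and 1992 in Ctrl and 2636, 1826 and 2003 in Tet1/2 cKO, with 0.070 (95% interval -0.34 to 0.48). Both overlapped between the groups, and so did the regulators Irf7, with 1694, 1765 and 1605 against 1624, 2186 and 2013 (0.19, 95% interval -0.64 to 1.02), and Stat2, with 3226, 3150 and 2632 against 3223, 3502 and 3313 (0.16, 95% interval -0.22 to 0.55). Usp18 had 299, 490 and 483 in Ctrl and 308, 568 and 598 in Tet1/2 cKO, with a log2 fold change of 0.19 (95% interval -0.83 to 1.21). Isg15 had 2499, 1949 and 2018 in Ctrl and 1023, 2604 and 3940 in Tet1/2 cKO. The Tet1/2 cKO libraries of Isg15 lay on both sides of Ctrl, with a log2 fold change of 0.032 (95% interval -1.33 to 1.39) that was -0.39 without Tet1/2 cKO replicate 3.

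Among the other effectors, Ifit1 had 410, 551 and 377 in Ctrl and 420, 527 and 571 in Tet1/2 cKO, with a log2 fold change of 0.19 (95% interval -0.56 to 0.94). Cxcl10 had 174, 188 and 121 against 110, 149 and 145, with -0.24 (95% interval -1.40 to 0.91). Gbp2 had 1323, 775 and 797 against 1039, 900 and 883, with 0.0051 (95% interval -0.70 to 0.71), and Ifitm3 had 7714, 6786 and 6915 against 9696, 8915 and 7338, with 0.27 (95% interval -0.16 to 0.70). None of these groups was free of overlap, and the intervals of Isg15, Cxcl10 and Usp18 are wide enough to hold changes of more than 0.8 on the log2 scale in either direction. Of the 105 other pathway genes tested in the Tet femurs, 0 passed with limma in any comparison.

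5hmC, the mark that TET enzymes write on DNA, was measured by hMeDIP-seq in femurs and deposited as peak lists in which replicates are pooled, so differences between lists have no replicate check. Peaks within 30 kb of the start site were counted for the 37 of the 39 genes with an annotated start, without Mx1 and Mx2. For VitC+ and VitC+/-, in lists with 371568 and 399599 peaks in all, the mean number per gene was 9.92 and 9.46. Over all 11240 genes it was 10.6 and 9.67. In Ctrl there were 10.9 and in Tet1/2 cKO 5.78, compared with 11.9 and 6.90 for all genes, in lists with 259326 and 146626 peaks in all. Of the 23 genes with a start site that were lower in RNA against VitC+, 11 had fewer peaks in VitC+/-, 7 as many and 5 more. This split was not counted over all genes, whose mean was also lower in VitC+/-, so it cannot say whether these genes differ from others. Near Trim30a there were 4 peaks in VitC+ and 10 in VitC+/-, compared with 3 peaks in VitC+ and 3 in VitC+/- near Irf7, 2 and 2 near Oas2, 5 and 3 near Isg15 and 15 and 9 near Usp18.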

How the data were processed

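RNA-seq was analysed for 9 VitC and 12 Tet femur libraries, grouped by their labels, with 3 animals per group. The authors trimmed the reads with Trim Galore 0.4.3.1, aligned them to mm10 with STAR 2.6.0b-1 and counted them with featureCounts 1.6.3, per the labels and the methods. RPKM values per library were deposited by the authors for the VitC femurs, and the tool that made them and the strand setting are not given in the sources used here. For the Tet femurs the authors deposited a signal, gene counts divided by DESeq2 size factors. The peak lists, with the fold enrichment (a ratio over local background) and the -log10 q per peak, were made by the authors with BWA 0.7.15.1 and MACS2 2.1.1.20160309.6 on pooled replicates.

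RPKM was divided by median-of-ratios factors, and the test ran on log2(value + 0.5) for gene entries that reached RPKM 1 in 3 or more libraries. For the Tet femurs it ran on log2(value + 1) for genes that reached 10 normalized counts in 3 or more libraries. The test was limma 3.58.1 (eBayes with trend, two-sided, Benjamini-Hochberg over all genes tested, R 4.3.3), with all libraries of an experiment sharing 1 estimate of the spread. In Tet libraries, 100% of values were whole reads within 0.02 after division by the step of the library. On these reads edgeR 4.0.16 (quasi-likelihood) called 0, 1 and 0 genes and DESeq2 1.42.0 called 13, 15 and 11 in Tet1 cKO, Tet2 cKO and Tet1/2 cKO, without Tet1 cKO replicate 3, whose step is too close to 1. Read depth behind RPKM values was computed from their steps. The limma and edgeR tests were tried on simulated data, and DESeq2 was not.

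The 39 genes, their roles, the pathway list and the marker lists were chosen with earlier results of these data known. Values per library are given for up to 10 genes per comparison that passed with groups that do not overlap, by size of change, and for Ifih1, Ddx58, Irf7, Stat2, Usp18, Isg15, Ifit1, Cxcl10, Gbp2 and Ifitm3 whatever their values. Alternatives changed the scaling, pseudocount, filter, libraries, replicate block, trend and test. Peak lists of MC3T3-E1 cells are not described here. Figures were drawn with matplotlib.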

Additional observations from a re-analysis of the deposited data

How the results depend on the processing

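In VitC+/- against VitC+, 20 to 25 of the 39 genes were lower under each of several other settings. These were another pseudocount, no filter, no trend, a fit of the 6 libraries alone and the replicate block. Of all genes, 829 to 1264 were lower there. Without scaling 16 of the 39 were lower, and all genes were split into 403 lower and 473 higher in place of 1001 and 693. Leaving out 1 library gave 14 to 25 lower genes among the 39 and 327 to 1285 among all genes in this comparison. The median of the 39 was then -0.98 to -0.74, and it was -0.31 to 0.047 in Tet1 cKO and -0.48 to -0.17 in Tet2 cKO. Leaving out 1 library also turned the sign of log2 fold changes that did not pass. Stat2 ranged from -0.073 to 0.36 against VitC+ and from -0.10 to 0.33 against WT, and Cxcl10 from -0.017 to 0.54 against WT. In Tet1/2 cKO the ranges were -0.046 to 0.49 for Usp18, -0.39 to 0.58 for Isg15, -0.13 to 0.26 for Gbp2 and -0.084 to 0.18 for Ddx58, and Gbp2 was -0.015 with TMM scaling, -0.057 with edgeR and -0.033 with DESeq2. The cause was not tested.

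The replicate numbers are not stated to pair the animals. Deviations of libraries with the same number correlated between -0.19 and 0.46 in the VitC femurs, with 4 of 9 pairs over 0.1, and between -0.57 and 0.53 in the Tet femurs, with 6 of 18 over 0.1. With the replicate block 25 of the 39 genes were lower against VitC+ and 29 against WT, where 1264 and 2222 of all genes were. In the Tet comparisons 0 passed, and in WT against VitC+ 0 of the 39 but 770 of all genes passed. The low depth of WT replicate 1 limits the precision of genes below an RPKM of 1.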
